A study of Mus musculus with 60 samples.

Results

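A set of 50 genes of cell division was followed across the embryonic mouse midbrain, forebrain and hindbrain while their neurons are born: 25 that act in DNA replication and 25 that act in mitosis. The members were fixed by name, and all 50 were found by symbol among the 24378 features of the deposited RPKM table (reads scaled to transcript length and to library depth). The samples are 60 RNA-seq libraries of total RNA from dissected tissue, 3 libraries for each of 5 regions at each of 4 stages. The regions are the ventral midbrain (floor and basal plate), the ventral forebrain, the ventral hindbrain, the alar plate (its level along the brain is not given in the labels) and the dorsal midbrain. The stages, in embryonic days, run daily from E11.5 to E14.5. Every embryo came from TH-GFP mice, which carry green fluorescent protein under the tyrosine hydroxylase promoter, so all groups share the transgene and none is wild type. Whether a group's libraries stem from different embryos is not given in the labels, and p-values therefore rest on the spread among libraries only.

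In the embryonic brain the dividing cells are mostly neural progenitors lining the ventricle, and neurons leave the cell cycle for good when they are born. A cell about to copy its DNA loads the MCM helicase onto origins, makes deoxynucleotides and assembles polymerases around the sliding clamp PCNA. Before it divides it makes cyclin B, mitotic kinases, spindle motors and checkpoint proteins, which are destroyed as it leaves mitosis. Both sets of transcripts are scarce in neurons. In bulk tissue, fewer dividing cells and less of a transcript in each dividing cell cannot be told apart.

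Depth in units of 1000000 reads ranged over 1.58 to 6.43 in E11.5 libraries, 8.67 to 13.1 in E12.5 libraries, 4.97 to 23.6 in E13.5 libraries and 0.979 to 6.13 in E14.5 libraries. The library names in the labels start with a prefix whose meaning they do not give. Each stage has prefixes of its own, apart from 1 that the E11.5 dorsal midbrain shares with the E14.5 ventral forebrain, ventral hindbrain and alar plate, so stage and name prefix cannot be told apart. Region markers went against the labels in several libraries. The ventral midbrain library E11.5 replicate 4 had Foxa2, a floor plate gene, at 9.07 RPKM, against 72.1 and 71.0 RPKM in the other E11.5 libraries of that region. The ventral forebrain libraries E11.5 replicates 4 and 6 had the midbrain gene En1 at 18.2 and 19.6 RPKM and the forebrain gene Nkx2-1 at 0, and replicate 1 at E12.5 had Nkx2-1 at 0.0357 RPKM and Foxa2 at 0.143 RPKM. The ventral hindbrain libraries E11.5 replicate 2 and E14.5 replicate 2 had the hindbrain gene Hoxa2 at 2.0 and 0.495 RPKM, against 6.59 to 39.0 RPKM in the other libraries of those groups. The ventral hindbrain library E12.5 replicate 1 had Hoxa2 at 0.105 RPKM, the hindbrain gene Hoxb2 at 0 and En1 at 41.2 RPKM, against 4.73 to 8.91 RPKM for En1 in the others of its group. Several results that rest on these libraries, but not all, are also given without them.

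Transcripts of both lists were lower at E14.5 than at E11.5 in all 5 regions, and most of the members passed the test in each. A member was called lower when its adjusted p was under 0.05 (limma on log2(RPKM + 1), Benjamini-Hochberg over all features tested) and its log2 change was at or below -1. In the ventral midbrain 25 of 25 replication members and 25 of 25 mitosis members were called lower, with median log2 changes of -2.22 and -3.14, where 7.41% of 13868 features tested were called lower. In the dorsal midbrain 24 and 24 were called, with medians of -1.83 and -1.64, against a background of 8.07%. In the ventral forebrain 25 and 24 were called, with medians of -1.86 and -2.04, against 6.74%. In the ventral hindbrain 25 and 25 were called, with medians of -2.01 and -2.65, against 6.63%. In the alar plate 25 and 25 were called, with medians of -2.41 and -2.82, against 9.3%. The median over all features tested lay between -0.08 and -0.04 in these comparisons. For each of the 50 genes, in each region, all 3 libraries at E14.5 were below all 3 at E11.5. How many of all features were separated in this way was not counted. With the libraries whose region markers went against their labels left out, 25 and 25 members were called in the ventral midbrain, 25 and 24 in the ventral forebrain and 25 and 25 in the ventral hindbrain. Here and below, shares of all features called were not taken for fits that leave out libraries or change a setting.

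**Figure D1:**
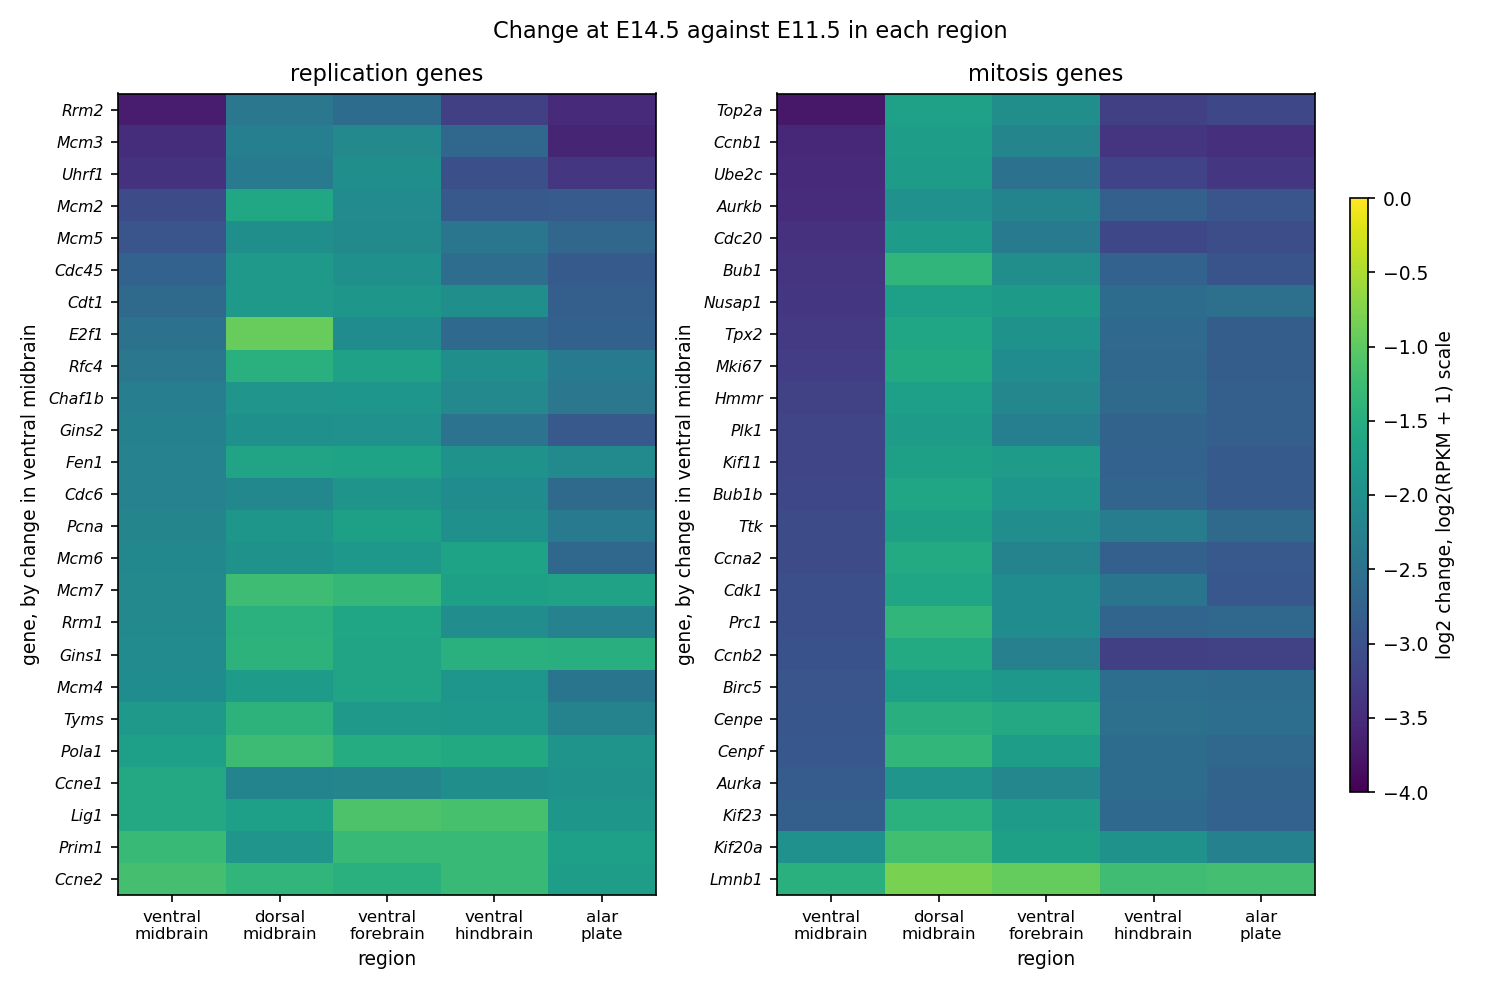
Log2 change of each of the 50 members at E14.5 against E11.5 in the 5 regions, as colour (limma on log2(RPKM + 1), 3 libraries per group), replication and mitosis members apart. The ventral midbrain column holds the changes of the mitosis members between -3.75 (Top2a) and -1.46 (Lmnb1), and the dorsal midbrain column stops at -0.81 for Lmnb1 and -0.93 for E2f1.

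Replication and mitosis genes are known to be transcribed in different phases of the cell cycle, and the promoters of the members were read for the short motifs known for each phase. E2F factors bind TTTGGCGC and TTTCGCGC before DNA synthesis. The cell cycle homology region, TTTGAA, is bound before mitosis by the complex that holds MuvB and B-Myb or FoxM1, often near a CCAAT box bound by NF-Y. The windows are RefSeq promoters of build GRCm38.p6, of 300 bases each, from 250 bases before to 50 after a gene's start, searched on both strands. They matched 21 of the 25 replication members and 20 of the 25 mitosis members by symbol. An E2F motif stood in 6 of the 21 replication windows (28.6%: Mcm3, Mcm5, Mcm6, Mcm7, Cdt1 and Pola1) and in 1 of the 20 mitosis windows (5.0%: Cdk1), against 0.833% of 27025 promoters of all genes. TTTGAA stood in 15 of the mitosis windows (75%) and 3 of the replication windows (14.3%: Mcm2, Fen1 and Cdc45), against 18.1% of all promoters. CCAAT stood in 18 mitosis windows (90.0%) and 12 replication windows (57.1%), against 37.9% of all promoters. All 15 mitosis windows with TTTGAA also held CCAAT (75%, against 7.12% of all promoters), and 2 replication windows held both (9.52%).

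Windows of 6 members are printed, 2 of helicase subunits and 4 of mitosis genes with large changes. They were picked among the members that hold the motifs, so they do not stand for their lists. They lie at chr8:75109259-75109558, plus strand (Mcm5), chr1:128359656-128359955, minus strand (Mcm6), chr4:118437294-118437593, minus strand (Cdc20), chr7:122159185-122159484, plus strand (Plk1), chr10:69352863-69353162, minus strand (Cdk1), and chr11:99024140-99024439, minus strand (Top2a). Each is written 5′ to 3′ on the gene's strand, and capitals mark the E2F motif in the Mcm5, Mcm6 and Cdk1 windows and TTTGAA and CCAAT, in either orientation, in the Cdc20, Plk1, Cdk1 and Top2a windows.
Mcm5: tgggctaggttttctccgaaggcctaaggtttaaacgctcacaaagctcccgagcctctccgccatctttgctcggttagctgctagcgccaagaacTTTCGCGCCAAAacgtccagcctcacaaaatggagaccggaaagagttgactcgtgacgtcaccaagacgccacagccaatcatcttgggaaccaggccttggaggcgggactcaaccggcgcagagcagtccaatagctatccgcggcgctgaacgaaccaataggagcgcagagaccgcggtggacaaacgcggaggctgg
Mcm6: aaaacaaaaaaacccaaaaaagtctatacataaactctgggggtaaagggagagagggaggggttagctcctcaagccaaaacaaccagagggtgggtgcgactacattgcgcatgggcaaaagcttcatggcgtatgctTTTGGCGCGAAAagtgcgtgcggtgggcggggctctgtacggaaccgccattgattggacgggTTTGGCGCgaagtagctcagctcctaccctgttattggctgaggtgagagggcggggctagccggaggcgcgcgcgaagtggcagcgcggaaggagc
Cdc20: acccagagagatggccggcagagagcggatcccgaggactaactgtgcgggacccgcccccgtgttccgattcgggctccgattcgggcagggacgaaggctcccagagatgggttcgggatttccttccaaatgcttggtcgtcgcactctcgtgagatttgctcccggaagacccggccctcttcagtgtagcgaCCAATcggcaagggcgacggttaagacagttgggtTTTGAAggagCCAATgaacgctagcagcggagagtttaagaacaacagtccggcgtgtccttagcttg
Plk1: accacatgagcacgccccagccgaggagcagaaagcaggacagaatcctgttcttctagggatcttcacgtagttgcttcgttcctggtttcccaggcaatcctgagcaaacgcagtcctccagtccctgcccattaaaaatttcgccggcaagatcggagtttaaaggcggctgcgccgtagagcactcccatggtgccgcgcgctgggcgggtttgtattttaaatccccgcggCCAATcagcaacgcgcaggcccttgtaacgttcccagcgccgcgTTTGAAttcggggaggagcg
Cdk1: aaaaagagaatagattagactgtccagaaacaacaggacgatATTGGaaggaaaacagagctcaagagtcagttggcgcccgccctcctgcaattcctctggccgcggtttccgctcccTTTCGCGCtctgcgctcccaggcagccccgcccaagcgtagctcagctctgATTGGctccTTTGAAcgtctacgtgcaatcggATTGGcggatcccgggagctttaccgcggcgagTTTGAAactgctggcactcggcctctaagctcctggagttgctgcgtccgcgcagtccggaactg
Top2a: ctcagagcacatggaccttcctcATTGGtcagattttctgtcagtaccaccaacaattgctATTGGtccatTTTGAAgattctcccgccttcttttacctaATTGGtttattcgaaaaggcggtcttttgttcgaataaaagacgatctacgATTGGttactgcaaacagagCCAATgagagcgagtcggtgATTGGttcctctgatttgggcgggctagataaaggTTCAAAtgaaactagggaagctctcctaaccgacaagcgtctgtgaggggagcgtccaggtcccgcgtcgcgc
The capital run in Mcm5 and the first one in Mcm6 hold an E2F motif on each strand, overlapping in the middle, and Mcm6 holds another downstream. Mcm5 and Mcm6 also hold 3 and 2 CCAAT, which are not in capitals. Cdc20 holds 1 TTTGAA and 2 CCAAT, and Plk1 holds 1 of each. Cdk1 holds 1 E2F motif as well as 2 TTTGAA and 3 CCAAT, and Top2a holds 2 TTTGAA and 6 CCAAT. A match is a run of letters in a window, not a measured binding site.

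The helicase and its loaders come first among the replication members. MCM2 to MCM7 form the ring that unwinds DNA, CDC6 and CDT1 load it onto origins, and CDC45 with the GINS proteins turns it on. In the ventral midbrain Mcm2 fell by 3.09 ± 0.12 on the log2 scale (SE; adjusted p = 2.09e-08), Mcm3 fell by 3.48 ± 0.18 (4.84e-08) and Mcm6 fell by 2.13 ± 0.12 (7.81e-08). Mcm3 averaged 3.23 ± 0.422 RPKM at E14.5, against 46.3 ± 6.17 at E11.5 (SD, n = 3 each). Cdc45 fell by 2.75 ± 0.22 and Cdt1 by 2.62 ± 0.16, while Mcm4, Mcm7, Gins1 and Gins2 fell by 2.05 to 2.25. Outside the ventral midbrain Mcm3 fell by 2.28 in the dorsal midbrain, 2.11 in the ventral forebrain, 2.66 in the ventral hindbrain and 3.59 ± 0.47 in the alar plate, where it was the member with the largest log2 change. Gins1 had the smallest in the alar plate (-1.50 ± 0.34, adjusted p = 0.00526).

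Mcm2 RPKM in ventral midbrain libraries was 60.2, 62.4 and 55.8 at E11.5, 25.6, 21.2 and 19.8 at E12.5, 18.1, 13.8 and 16.4 at E13.5, and 5.43, 6.95 and 6.05 at E14.5. Mcm2 RPKM in dorsal midbrain libraries was 86.2, 83.7 and 90.9 at E11.5, 71.8, 67.3 and 39.8 at E12.5, 44.7, 58.0 and 49.2 at E13.5, and 21.9, 25.7 and 38.1 at E14.5. The ventral midbrain libraries were below all dorsal midbrain libraries at every stage, and the E12.5 dorsal midbrain spread from 39.8 to 71.8 RPKM, with replicate 3 lowest. Mcm2 RPKM in ventral forebrain libraries was 79.1, 66.4 and 67.6 at E11.5, 28.6, 14.1 and 13.1 at E12.5, 20.2, 18.6 and 27.7 at E13.5, and 11.3, 19.7 and 18.4 at E14.5. Mcm2 RPKM in ventral hindbrain libraries was 93.2, 51.2 and 64.5 at E11.5, 20.6, 15.1 and 14.6 at E12.5, 9.32, 15.1 and 11.96 at E13.5, and 11.9, 6.67 and 7.04 at E14.5. Mcm2 RPKM in alar plate libraries was 71.0, 82.2 and 94.04 at E11.5, 28.2, 26.5 and 38.4 at E12.5, 11.6, 17.1 and 24.3 at E13.5, and 5.86, 13.9 and 13.9 at E14.5. In these regions too every E12.5, E13.5 and E14.5 library was below every E11.5 library, and in the ventral forebrain the 3 later stages overlapped. Mcm2 changed at E14.5 against E11.5 by -1.61 ± 0.22 in the dorsal midbrain (adjusted p = 0.000129), -2.07 ± 0.28 in the ventral forebrain (0.000362), -2.89 ± 0.26 in the ventral hindbrain (1.06e-05) and -2.85 ± 0.32 in the alar plate (0.000278).

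Mcm5 RPKM in ventral midbrain libraries was 45.1, 45.4 and 40.0 at E11.5, 14.2, 10.8 and 10.7 at E12.5, 12.9, 8.77 and 8.48 at E13.5, and 6.21, 3.42 and 4.94 at E14.5. Mcm5 RPKM in dorsal midbrain libraries was 74.8, 71.3 and 84.2 at E11.5, 51.1, 47.2 and 23.5 at E12.5, 31.8, 41.1 and 38.4 at E13.5, and 13.1, 16.8 and 27.6 at E14.5. Mcm5 thus kept most of its dorsal midbrain level in 2 of the 3 libraries at E12.5 and in none of the ventral midbrain libraries. Mcm5 RPKM in ventral forebrain libraries was 59.0, 41.5 and 53.6 at E11.5, 18.3, 10.1 and 10.4 at E12.5, 14.96, 12.4 and 22.1 at E13.5, and 8.20, 11.3 and 14.8 at E14.5. Mcm5 RPKM in ventral hindbrain libraries was 67.1, 28.6 and 33.6 at E11.5, 11.3, 9.13 and 9.55 at E12.5, 6.66, 8.14 and 7.99 at E13.5, and 8.69, 5.23 and 6.30 at E14.5. Mcm5 RPKM in alar plate libraries was 45.3, 79.1 and 69.1 at E11.5, 19.6, 18.7 and 32.2 at E12.5, 8.48, 12.4 and 18.6 at E13.5, and 6.91, 9.91 and 10.6 at E14.5. The ventral hindbrain library E11.5 replicate 2 stood at 67.1 RPKM, against 28.6 and 33.6 RPKM in the others of its group. Mcm5 fell by 2.95 ± 0.19 in the ventral midbrain (adjusted p = 1.6e-07), 2.01 ± 0.28 in the dorsal midbrain (0.000147), 2.09 ± 0.27 in the ventral forebrain (0.000325), 2.43 ± 0.26 in the ventral hindbrain (3.01e-05) and 2.68 ± 0.31 in the alar plate (0.000278).

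Cdc6 RPKM in ventral midbrain libraries was 5.10, 5.54 and 4.71 at E11.5, 1.39, 0.666 and 0.906 at E12.5, 0.921, 0.799 and 0.735 at E13.5, and 0.350, 0.335 and 0.250 at E14.5. Cdc6 RPKM in dorsal midbrain libraries was 12.03, 9.81 and 13.4 at E11.5, 6.29, 5.45 and 2.50 at E12.5, 3.50, 4.68 and 4.26 at E13.5, and 1.09, 1.93 and 2.98 at E14.5. Cdc6 was the scarcest of the genes given library by library, and at E14.5 its ventral midbrain values came from 5, 2 and 2 reads. Cdc6 RPKM in ventral forebrain libraries was 9.04, 4.88 and 7.17 at E11.5, 1.76, 0.901 and 0.573 at E12.5, 1.24, 1.15 and 1.74 at E13.5, and 0.752, 0.851 and 1.68 at E14.5. Cdc6 RPKM in ventral hindbrain libraries was 8.52, 3.95 and 5.23 at E11.5, 1.44, 0.999 and 1.21 at E12.5, 0.529, 0.970 and 0.331 at E13.5, and 1.16, 0.702 and 0.117 at E14.5. Cdc6 RPKM in alar plate libraries was 5.05, 9.36 and 9.27 at E11.5, 1.83, 1.47 and 4.03 at E12.5, 0.508, 0.8 and 1.88 at E13.5, and 0.207, 0.524 and 0.544 at E14.5. The lowest value of any member in any library, 0.117 RPKM, was that of Cdc6 in the ventral hindbrain at E14.5, where the group spread up to 1.16 RPKM. On the log2(RPKM + 1) scale, which understates the change of low genes, Cdc6 fell by 2.22 ± 0.16 in the ventral midbrain (adjusted p = 3.09e-07), 2.13 ± 0.28 in the dorsal midbrain (9.62e-05), 1.93 ± 0.27 in the ventral forebrain (0.000419), 2.05 ± 0.28 in the ventral hindbrain (0.000109) and 2.61 ± 0.33 in the alar plate (0.000349). As a share of the E11.5 mean, 6.09% of Cdc6 was left in the ventral midbrain at E14.5, the lowest of the replication members, and 39.3% of Ccne2, the highest.

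Nucleotide supply follows. RRM1 and RRM2 are the subunits of ribonucleotide reductase, RRM2 being the one that is made and destroyed with the cell cycle, and thymidylate synthase (Tyms) makes thymidylate. Rrm2 had the largest log2 change among replication members in the ventral midbrain, dorsal midbrain, ventral forebrain and ventral hindbrain. Rrm1 fell by 2.11 ± 0.15 in the ventral midbrain and Tyms by 1.84 ± 0.14, and in the other regions both fell by 1.41 to 2.23. Rrm2 RPKM in ventral midbrain libraries was 127, 108 and 95.0 at E11.5, 24.8, 16.7 and 15.3 at E12.5, 17.5, 14.52 and 13.9 at E13.5, and 7.08, 9.87 and 6.31 at E14.5. Rrm2 RPKM in dorsal midbrain libraries was 217, 194 and 212 at E11.5, 114, 103 and 38.6 at E12.5, 64.1, 91.95 and 81.9 at E13.5, and 24.8, 35.4 and 64.0 at E14.5. All ventral midbrain libraries were below all dorsal midbrain libraries at each stage, and the dorsal midbrain was widest at E12.5, where replicate 3 stood at 38.6 RPKM. Rrm2 RPKM in ventral forebrain libraries was 160, 128 and 105 at E11.5, 51.1, 9.63 and 12.6 at E12.5, 22.7, 24.1 and 38.9 at E13.5, and 15.5, 23.7 and 23.6 at E14.5. Rrm2 RPKM in ventral hindbrain libraries was 185, 76.7 and 107 at E11.5, 32.7, 18.7 and 20.04 at E12.5, 9.15, 20.2 and 12.3 at E13.5, and 16.1, 8.58 and 9.98 at E14.5. Rrm2 RPKM in alar plate libraries was 138, 147 and 198 at E11.5, 33.7, 34.2 and 93.1 at E12.5, 8.89, 16.7 and 34.9 at E13.5, and 6.75, 15.7 and 19.5 at E14.5. The ventral forebrain and alar plate each had 1 high library at E12.5, at 51.1 and 93.1 RPKM. Rrm2 fell by 3.68 ± 0.19 in the ventral midbrain (adjusted p = 5.36e-08), 2.41 ± 0.38 in the dorsal midbrain (0.000301), 2.59 ± 0.48 in the ventral forebrain (0.00165), 3.25 ± 0.36 in the ventral hindbrain (3.35e-05) and 3.53 ± 0.52 in the alar plate (0.000608).

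The synthesis machinery includes the clamp PCNA, the clamp loader subunit RFC4, primase (Prim1) with DNA polymerase alpha (Pola1), and FEN1 and DNA ligase 1 (Lig1), which finish the lagging strand. Pcna RPKM in ventral midbrain libraries was 158, 150.3 and 123 at E11.5, 55.9, 41.1 and 41.3 at E12.5, 48.9, 38.0 and 37.1 at E13.5, and 32.1, 31.3 and 29.1 at E14.5. Pcna RPKM in dorsal midbrain libraries was 276, 267 and 291 at E11.5, 167, 144 and 75.9 at E12.5, 97.4, 132 and 122 at E13.5, and 58.8, 65.6 and 107 at E14.5. On the RPKM scale Pcna had the highest level of the replication members given library by library, and the ventral and dorsal midbrain did not overlap at any stage. Pcna RPKM in ventral forebrain libraries was 195, 150.1 and 157 at E11.5, 76.1, 35.4 and 41.0 at E12.5, 50.7, 51.5 and 73.4 at E13.5, and 39.2, 51.8 and 59.2 at E14.5. Pcna RPKM in ventral hindbrain libraries was 236, 112 and 136 at E11.5, 53.4, 38.8 and 38.6 at E12.5, 30.4, 39.4 and 37.4 at E13.5, and 50.5, 32.9 and 32.4 at E14.5. Pcna RPKM in alar plate libraries was 163, 268 and 248 at E11.5, 65.4, 66.7 and 169 at E12.5, 32.0, 40.0 and 63.5 at E13.5, and 33.2, 50.1 and 48.6 at E14.5. In the ventral hindbrain replicate 2 was highest at E11.5 and at E14.5, at 236 and 50.5 RPKM. Pcna fell by 2.18 ± 0.14 in the ventral midbrain (adjusted p = 1.55e-07), 1.88 ± 0.27 in the dorsal midbrain (0.000167), 1.73 ± 0.26 in the ventral forebrain (0.000598), 1.99 ± 0.26 in the ventral hindbrain (8.09e-05) and 2.33 ± 0.37 in the alar plate (0.00093). The polymerase and ligase genes changed less in the ventral midbrain: Pola1 fell by 1.74 ± 0.17, Lig1 by 1.58 ± 0.14 and Prim1 by 1.31 ± 0.18, against 2.41 ± 0.17 for Rfc4 and 2.22 ± 0.14 for Fen1. Lig1 had the smallest log2 change of the replication members in the ventral forebrain (-1.12 ± 0.19) and the ventral hindbrain (-1.16 ± 0.21). Prim1 and Lig1 lost their ventral hindbrain calls when E11.5 replicate 2 was left out. In the dorsal midbrain, in contrast, Cdc45 (-1.83 ± 0.20, adjusted p = 3.66e-05), Mcm4 (-1.80 ± 0.21), Prim1 (-1.91 ± 0.22) and Lig1 (-1.75 ± 0.21) were the replication members with the smallest adjusted p.

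Chromatin and cell cycle entry close the replication list. CHAF1B belongs to the complex that puts histones onto new DNA, UHRF1 brings the maintenance methyltransferase to it, E2F1 is a transcription factor of the entry into DNA synthesis, and cyclins E1 and E2 drive that entry. Uhrf1 fell by 3.41 ± 0.20 in the ventral midbrain, Chaf1b by 2.29 ± 0.20 and E2f1 by 2.49 ± 0.17. E2f1 was not called in the dorsal midbrain (-0.93 ± 0.28, adjusted p = 0.014), where it averaged 16.1 ± 6.32 RPKM at E14.5, against 30.3 ± 2.37 at E11.5 (SD, n = 3 each). In the dorsal midbrain 84.5% of the E11.5 mean of E2f1 was left at E12.5, 89.9% at E13.5 and 53.2% at E14.5, the highest of the replication members each time. Ccne1 RPKM in ventral midbrain libraries was 10.1, 10.99 and 8.72 at E11.5, 2.64, 2.07 and 2.87 at E12.5, 1.86, 2.59 and 2.43 at E13.5, and 2.13, 2.35 and 3.50 at E14.5. Ccne1 RPKM in dorsal midbrain libraries was 27.1, 19.96 and 23.7 at E11.5, 12.2, 11.04 and 5.17 at E12.5, 8.35, 12.02 and 10.3 at E13.5, and 2.54, 3.99 and 7.48 at E14.5. Ccne1 libraries of the ventral midbrain overlapped among E12.5, E13.5 and E14.5, and at E14.5 they overlapped with the dorsal midbrain as well. Ccne1 RPKM in ventral forebrain libraries was 14.51, 15.8 and 17.1 at E11.5, 4.69, 3.24 and 2.76 at E12.5, 2.90, 3.25 and 3.83 at E13.5, and 2.92, 1.99 and 3.34 at E14.5. Ccne1 RPKM in ventral hindbrain libraries was 21.1, 10.3 and 13.1 at E11.5, 4.56, 2.94 and 2.75 at E12.5, 3.14, 4.04 and 3.64 at E13.5, and 2.93, 3.72 and 1.91 at E14.5. Ccne1 RPKM in alar plate libraries was 16.0, 18.5 and 18.4 at E11.5, 4.86, 4.72 and 9.10 at E12.5, 1.92, 3.07 and 4.54 at E13.5, and 3.86, 4.08 and 3.41 at E14.5. In these 3 regions the E14.5 libraries overlapped with those of E13.5. Ccne1 fell by 1.59 ± 0.16 in the ventral midbrain (adjusted p = 5.93e-06), 2.20 ± 0.32 in the dorsal midbrain (0.000184), 2.18 ± 0.19 in the ventral forebrain (6.32e-05), 2.01 ± 0.25 in the ventral hindbrain (7.09e-05) and 1.96 ± 0.26 in the alar plate (0.000388). Ccne2 had the smallest log2 change of the ventral midbrain (-1.18 ± 0.20, adjusted p = 0.000293) and was not called there without E11.5 replicate 2 (-0.96).

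Mitosis members changed more than replication members in the ventral midbrain, ventral forebrain, ventral hindbrain and alar plate by their medians, and less in the dorsal midbrain. The drivers of entry are cyclin-dependent kinase 1 with cyclins A2, B1 and B2, and the proliferation markers Mki67 and Top2a, which encode the coat protein of mitotic chromosomes and the topoisomerase that untangles them, follow the same phase. Top2a had the largest log2 change of all mitosis members in the ventral midbrain. Top2a RPKM in ventral midbrain libraries was 118, 123 and 90.3 at E11.5, 40.6, 25.5 and 25.7 at E12.5, 19.5, 17.0 and 18.3 at E13.5, and 5.31, 8.47 and 8.23 at E14.5. Top2a RPKM in dorsal midbrain libraries was 163, 182 and 212 at E11.5, 149.8, 130 and 65.2 at E12.5, 89.4, 108 and 95.5 at E13.5, and 29.1, 59.1 and 98.6 at E14.5. The dorsal midbrain library E14.5 replicate 4, at 98.6 RPKM, was as high as the E13.5 libraries, while replicate 2 stood at 29.1 RPKM. Top2a RPKM in ventral forebrain libraries was 143, 119 and 128 at E11.5, 66.0, 13.7 and 17.2 at E12.5, 31.9, 26.3 and 51.5 at E13.5, and 23.4, 31.1 and 41.1 at E14.5. Top2a RPKM in ventral hindbrain libraries was 164, 86.2 and 115 at E11.5, 37.8, 19.3 and 21.9 at E12.5, 8.59, 16.9 and 10.5 at E13.5, and 21.1, 8.03 and 8.91 at E14.5. Top2a RPKM in alar plate libraries was 132, 168 and 172 at E11.5, 51.5, 48.0 and 66.2 at E12.5, 10.2, 20.5 and 40.1 at E13.5, and 6.07, 25.4 and 29.4 at E14.5. The alar plate library E14.5 replicate 2 was the low one of its group, and the ventral forebrain library E12.5 replicate 1 the high one. Top2a fell by 3.75 ± 0.20 in the ventral midbrain (adjusted p = 5.85e-08), 1.71 ± 0.37 in the dorsal midbrain (0.00224), 2.03 ± 0.47 in the ventral forebrain (0.00508), 3.24 ± 0.38 in the ventral hindbrain (4.43e-05) and 3.14 ± 0.54 in the alar plate (0.00129).

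Mki67 RPKM in ventral midbrain libraries was 49.6, 49.6 and 39.1 at E11.5, 23.7, 14.3 and 15.6 at E12.5, 11.1, 10.1 and 10.8 at E13.5, and 2.88, 3.63 and 5.19 at E14.5. Mki67 RPKM in dorsal midbrain libraries was 73.1, 78.2 and 92.5 at E11.5, 71.7, 60.6 and 31.7 at E12.5, 47.3, 55.1 and 47.2 at E13.5, and 15.7, 29.1 and 40.7 at E14.5. The dorsal midbrain library E12.5 replicate 1 stood at 71.7 RPKM, just under the lowest E11.5 library at 73.1 RPKM, and at E14.5 the lowest dorsal midbrain library was still above the highest ventral midbrain library. Mki67 RPKM in ventral forebrain libraries was 64.1, 49.9 and 60.3 at E11.5, 31.2, 7.06 and 7.54 at E12.5, 15.7, 12.7 and 26.7 at E13.5, and 8.63, 15.1 and 17.3 at E14.5. Mki67 RPKM in ventral hindbrain libraries was 65.1, 33.6 and 44.6 at E11.5, 20.6, 11.1 and 12.9 at E12.5, 4.71, 9.36 and 5.80 at E13.5, and 11.6, 4.71 and 4.88 at E14.5. Mki67 RPKM in alar plate libraries was 54.5, 79.6 and 59.5 at E11.5, 25.6, 22.3 and 17.6 at E12.5, 5.71, 13.0 and 20.8 at E13.5, and 2.83, 12.49 and 14.0 at E14.5. Of the E12.5 alar plate libraries replicate 3 was the lowest here, at 17.6 RPKM, and the highest for Pcna and Rrm2. Across features it stood apart from its group. The chi-square per degree of freedom between its reads and those of replicates 2 and 1 was 98.8 and 101. The next highest value for a pair of libraries within a group was 36.4. Alar plate results at E12.5 include this library, and the cause of its difference was not tested. Mki67 fell by 3.28 ± 0.19 in the ventral midbrain (adjusted p = 1.08e-07), 1.57 ± 0.32 in the dorsal midbrain (0.00139), 2.06 ± 0.47 in the ventral forebrain (0.00483), 2.65 ± 0.35 in the ventral hindbrain (9.91e-05) and 2.82 ± 0.51 in the alar plate (0.00173).

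Cdk1 RPKM in ventral midbrain libraries was 39.9, 29.4 and 29.6 at E11.5, 11.9, 8.46 and 8.43 at E12.5, 7.07, 6.46 and 6.88 at E13.5, and 2.27, 3.80 and 3.44 at E14.5. Cdk1 RPKM in dorsal midbrain libraries was 48.0, 47.4 and 50.9 at E11.5, 31.0, 28.2 and 14.6 at E12.5, 19.9, 24.6 and 22.8 at E13.5, and 8.83, 14.7 and 25.5 at E14.5. Cdk1 did not overlap between ventral and dorsal midbrain at any stage. Cdk1 RPKM in ventral forebrain libraries was 44.6, 33.1 and 48.8 at E11.5, 13.7, 4.23 and 5.75 at E12.5, 10.2, 8.42 and 15.8 at E13.5, and 5.83, 10.3 and 12.8 at E14.5. Cdk1 RPKM in ventral hindbrain libraries was 40.0, 20.02 and 25.6 at E11.5, 11.6, 6.30 and 6.44 at E12.5, 3.46, 6.90 and 4.46 at E13.5, and 6.58, 3.19 and 3.40 at E14.5. Cdk1 RPKM in alar plate libraries was 34.8, 60.1 and 43.7 at E11.5, 12.51, 10.8 and 37.0 at E12.5, 3.45, 6.53 and 12.53 at E13.5, and 2.35, 7.74 and 6.67 at E14.5. One alar plate library at E12.5, replicate 3, stood at 37.0 RPKM and within the E11.5 range. Cdk1 fell by 3.03 ± 0.17 in the ventral midbrain (adjusted p = 8.77e-08), 1.64 ± 0.32 in the dorsal midbrain (0.00105), 2.06 ± 0.38 in the ventral forebrain (0.00154), 2.45 ± 0.32 in the ventral hindbrain (9.25e-05) and 2.92 ± 0.53 in the alar plate (0.00167).

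Ccnb1 RPKM in ventral midbrain libraries was 73.2, 60.7 and 58.6 at E11.5, 20.2, 12.6 and 12.53 at E12.5, 10.5, 9.94 and 10.2 at E13.5, and 3.62, 4.99 and 4.96 at E14.5. Ccnb1 RPKM in dorsal midbrain libraries was 105, 95.2 and 106 at E11.5, 66.8, 59.9 and 29.0 at E12.5, 43.5, 52.4 and 46.8 at E13.5, and 19.5, 29.2 and 44.3 at E14.5. Ccnb1, for cyclin B1, fell into 3 levels in the ventral midbrain, with E12.5 and E13.5 close together between E11.5 and E14.5. Ccnb1 RPKM in ventral forebrain libraries was 92.04, 71.9 and 73.7 at E11.5, 28.2, 6.56 and 9.86 at E12.5, 15.8, 15.6 and 26.6 at E13.5, and 13.1, 17.3 and 20.1 at E14.5. Ccnb1 RPKM in ventral hindbrain libraries was 100.3, 45.9 and 62.0 at E11.5, 16.6, 9.41 and 10.9 at E12.5, 3.21, 9.64 and 5.38 at E13.5, and 9.60, 3.63 and 4.32 at E14.5. Ccnb1 RPKM in alar plate libraries was 78.6, 99.8 and 108 at E11.5, 24.1, 23.3 and 47.4 at E12.5, 5.41, 11.02 and 21.9 at E13.5, and 2.06, 13.6 and 14.1 at E14.5. It had the largest log2 change of the mitosis members in the ventral hindbrain and the alar plate. Ccnb1 fell by 3.56 ± 0.17 in the ventral midbrain (adjusted p = 3.77e-08), 1.76 ± 0.30 in the dorsal midbrain (0.000457), 2.18 ± 0.40 in the ventral forebrain (0.00158), 3.39 ± 0.40 in the ventral hindbrain (4.9e-05) and 3.45 ± 0.61 in the alar plate (0.00145). Its partner genes moved alike in the ventral midbrain: Ccna2 fell by 3.08 ± 0.19 and Ccnb2 by 3.0 ± 0.14. In the ventral forebrain Ccnb2 had the smallest adjusted p of the mitosis members (-2.26 ± 0.34, adjusted p = 0.000554).

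The mitotic kinases PLK1, Aurora A and Aurora B order centrosome maturation, spindle assembly and chromosome attachment, and survivin (Birc5) works with Aurora B. Plk1 RPKM in ventral midbrain libraries was 31.1, 28.4 and 32.95 at E11.5, 12.4, 8.64 and 9.24 at E12.5, 7.07, 6.6 and 7.70 at E13.5, and 2.19, 3.49 and 2.08 at E14.5. Plk1 RPKM in dorsal midbrain libraries was 51.5, 40.4 and 49.99 at E11.5, 36.0, 33.6 and 16.0 at E12.5, 22.6, 29.5 and 27.2 at E13.5, and 7.95, 13.6 and 19.6 at E14.5. The 3 ventral midbrain libraries of E14.5 lay below the lowest dorsal midbrain library of that stage, 7.95 RPKM. Plk1 RPKM in ventral forebrain libraries was 43.2, 33.5 and 38.8 at E11.5, 18.2, 4.24 and 6.31 at E12.5, 9.999, 9.68 and 18.5 at E13.5, and 4.88, 7.54 and 9.70 at E14.5. Plk1 RPKM in ventral hindbrain libraries was 42.8, 21.5 and 29.9 at E11.5, 10.8, 6.598 and 6.11 at E12.5, 3.15, 6.94 and 4.47 at E13.5, and 5.84, 2.34 and 3.56 at E14.5. Plk1 RPKM in alar plate libraries was 37.0, 44.0 and 42.1 at E11.5, 14.8, 13.4 and 23.2 at E12.5, 3.76, 8.12 and 13.3 at E13.5, and 1.94, 9.34 and 6.38 at E14.5. Within the ventral hindbrain, replicate 2 was the highest library at E11.5 and at E14.5. Plk1 fell by 3.17 ± 0.16 in the ventral midbrain (adjusted p = 4.51e-08), 1.79 ± 0.31 in the dorsal midbrain (0.000541), 2.27 ± 0.42 in the ventral forebrain (0.00154), 2.73 ± 0.33 in the ventral hindbrain (5.51e-05) and 2.79 ± 0.46 in the alar plate (0.0011).

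Aurkb RPKM in ventral midbrain libraries was 26.9, 31.0 and 23.9 at E11.5, 9.03, 6.65 and 6.02 at E12.5, 7.23, 5.53 and 5.05 at E13.5, and 1.80, 1.56 and 1.17 at E14.5. Aurkb RPKM in dorsal midbrain libraries was 63.0, 57.5 and 52.2 at E11.5, 39.9, 39.3 and 16.6 at E12.5, 25.6, 34.9 and 31.9 at E13.5, and 7.63, 14.4 and 23.5 at E14.5. Aurkb kept 5.53% of its E11.5 mean in the ventral midbrain at E14.5, the lowest of the mitosis members, and 26.4% in the dorsal midbrain, where it was also the lowest. Its ventral midbrain values at E14.5 came from 11, 4 and 4 reads. Aurkb RPKM in ventral forebrain libraries was 39.5, 30.7 and 41.6 at E11.5, 16.5, 4.10 and 4.60 at E12.5, 9.20, 6.67 and 12.8 at E13.5, and 6.63, 6.95 and 8.52 at E14.5. Aurkb RPKM in ventral hindbrain libraries was 46.1, 17.7 and 33.7 at E11.5, 10.3, 5.49 and 6.31 at E12.5, 2.92, 6.93 and 4.73 at E13.5, and 6.31, 2.51 and 2.63 at E14.5. Aurkb RPKM in alar plate libraries was 33.5, 50.8 and 48.0 at E11.5, 13.8, 13.47 and 28.7 at E12.5, 3.22, 6.08 and 14.4 at E13.5, and 1.93, 6.25 and 8.01 at E14.5. The ventral forebrain libraries of E14.5 were close together, and those of the alar plate were not. Aurkb fell by 3.49 ± 0.17 in the ventral midbrain (adjusted p = 3.82e-08), 1.98 ± 0.36 in the dorsal midbrain (0.000731), 2.19 ± 0.40 in the ventral forebrain (0.00141), 2.78 ± 0.39 in the ventral hindbrain (0.000138) and 2.95 ± 0.51 in the alar plate (0.00136). Aurka fell by 2.83 ± 0.19 in the ventral midbrain and 2.58 ± 0.27 in the ventral hindbrain. Birc5 averaged 0.977 ± 0.193 RPKM in the ventral midbrain at E14.5, against 14.3 ± 1.67 at E11.5 (SD, n = 3 each), and in the dorsal midbrain it was the mitosis member with the smallest adjusted p (-1.75 ± 0.23, adjusted p = 0.000104). The E14.5 ventral midbrain values of Birc5 came from 8, 5 and 6 reads.

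The spindle checkpoint genes Bub1, Bub1b and Ttk, and Cdc20 and Ube2c, which act with the anaphase-promoting complex to destroy cyclin B, fell together. In the ventral midbrain Cdc20 fell by 3.43 ± 0.16 (adjusted p = 3.69e-08), Ube2c by 3.52 ± 0.24, Bub1 by 3.40 ± 0.19, Bub1b by 3.14 ± 0.15 and Ttk by 3.08 ± 0.19. Cdc20 averaged 2.92 ± 0.832 RPKM there at E14.5, against 40.8 ± 3.96 at E11.5, and 21.3 ± 12.2 RPKM in the dorsal midbrain at E14.5, against 68.7 ± 7.46 at E11.5 (SD, n = 3 each). Cdc20 had the smallest adjusted p of the mitosis members in the ventral hindbrain (-3.14 ± 0.30, adjusted p = 1.49e-05), and Ube2c the largest log2 change in the ventral forebrain (-2.50 ± 0.45, adjusted p = 0.00146). Bub1 changed by -3.40 in the ventral midbrain and by -1.36 ± 0.28 in the dorsal midbrain.

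Spindle motors, microtubule proteins and centromere proteins make up most of the rest. KIF11 pushes the spindle poles apart, KIF23 and PRC1 build the central spindle for cytokinesis, with KIF20A beside them, TPX2, NUSAP1 and HMMR act on spindle microtubules, and CENPE and CENPF sit at the kinetochore. In the ventral midbrain Nusap1 fell by 3.37 ± 0.26, Tpx2 by 3.32 ± 0.17, Hmmr by 3.21 ± 0.25, Kif11 by 3.17 ± 0.19, Prc1 by 3.03 ± 0.15, Cenpe by 2.93 ± 0.18, Cenpf by 2.91 ± 0.18 and Kif23 by 2.79 ± 0.20. Hmmr values there at E14.5 came from 17, 1 and 10 reads. Kif20a changed less there (-1.97 ± 0.11), and in the alar plate it had the smallest adjusted p of the list (-2.24 ± 0.29, adjusted p = 0.00037). In the dorsal midbrain these 9 genes fell by 1.21 to 1.75, with Kif20a at the low end and Hmmr at the high end.

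Lmnb1 encodes lamin B1 of the nuclear envelope, which is present between divisions too. Lmnb1 RPKM in ventral midbrain libraries was 169, 172 and 153 at E11.5, 93.8, 85.6 and 88.3 at E12.5, 82.5, 76.6 and 77.8 at E13.5, and 59.6, 60.9 and 57.7 at E14.5. Lmnb1 RPKM in dorsal midbrain libraries was 224, 220 and 228 at E11.5, 191, 191 and 134 at E12.5, 157, 175 and 166 at E13.5, and 107, 130 and 149 at E14.5. The spread within each ventral midbrain group was small, and all its libraries were below those of the dorsal midbrain at the same stage. Lmnb1 RPKM in ventral forebrain libraries was 179, 170 and 167 at E11.5, 142, 86.2 and 84.7 at E12.5, 101, 103 and 122 at E13.5, and 81.6, 85.7 and 101 at E14.5. Lmnb1 RPKM in ventral hindbrain libraries was 208, 149 and 165 at E11.5, 103, 84.0 and 84.9 at E12.5, 68.7, 82.7 and 69.6 at E13.5, and 93.6, 63.6 and 65.7 at E14.5. Lmnb1 RPKM in alar plate libraries was 197, 199 and 224 at E11.5, 122, 127 and 186 at E12.5, 88.3, 97.0 and 116 at E13.5, and 70.7, 106 and 94.7 at E14.5. Lmnb1 kept the highest share of its E11.5 mean of all mitosis members in every region and at every later stage, with 36.0% left in the ventral midbrain at E14.5 and 57.5% in the dorsal midbrain. It had the smallest log2 change of the list in the ventral midbrain (-1.46 ± 0.06, adjusted p = 2.09e-08), the ventral hindbrain (-1.22 ± 0.16) and the alar plate (-1.20 ± 0.20). It was not called in the dorsal midbrain (-0.81 ± 0.14, adjusted p = 0.000578) or the ventral forebrain (-0.94 ± 0.17, 0.00159), where its adjusted p passed but its change stayed short of the 2-fold limit.

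The median log2 change of the replication members was larger from E11.5 to E12.5 than from E12.5 to E14.5 in every region. For the mitosis members the medians of the 2 intervals were -1.68 and -1.52 in the ventral midbrain, -0.90 and -0.72 in the dorsal midbrain, -2.21 and 0.22 in the ventral forebrain, -1.90 and -0.78 in the ventral hindbrain and -1.45 and -1.40 in the alar plate. At E12.5 against E11.5, 25 replication and 24 mitosis members were called lower in the ventral midbrain (3.45% of all features), with medians of -1.62 and -1.68. Rrm2 fell by 2.50 ± 0.19 there (adjusted p = 2.33e-06), Ccnb2 by 1.83 ± 0.14 (3.03e-06) and Bub1 by 2.05 ± 0.19, and Lmnb1 was the member not called (-0.88 ± 0.06). In the ventral forebrain 25 and 24 were called (9.19% of all features), led by Ccne1 (-1.90 ± 0.19, adjusted p = 0.000121) and Ccnb2 (-2.57 ± 0.34, 0.000272). In the ventral hindbrain 25 and 24 were called (4.67%), led by Ccne2 (-1.51 ± 0.18, adjusted p = 0.000131) and Kif20a (-1.50 ± 0.19, 0.000147). In the alar plate 20 and 13 were called (4.12%), led by Pola1 (-1.46 ± 0.24, adjusted p = 0.00297) and Hmmr (-1.72 ± 0.40, 0.0115), and in the dorsal midbrain 14 and 7 (2.92%), led by Ccne2 (-1.28 ± 0.17, adjusted p = 0.000234) and Hmmr (-1.14 ± 0.24, 0.00318). The dorsal midbrain counts were 2 and 0 without E12.5 replicate 3, the low library of that group, and the mitosis count was 16 without replicate 1 and 15 without replicate 2. The alar plate counts were 12 and 5 without E11.5 replicate 6 or replicate 4, 11 and 4 without E12.5 replicate 1, and 10 and 3 without E12.5 replicate 2, and with no filter on low values they were 13 and 4, while the mitosis count was 8 with a pseudocount of 0.1 and 23 in 1 fit over all libraries. The dorsal midbrain mitosis count was 3 with no filter or with median-ratio scaling. With the libraries of atypical region markers left out, the E12.5 against E11.5 counts were 25 and 24 in the ventral midbrain, 25 and 25 in the ventral forebrain and 22 and 24 in the ventral hindbrain.

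The next day brought no call. At E13.5 against E12.5 no member was called lower in any region by limma or by voom, where 0.00721% of features were called in the ventral midbrain and 0% in the dorsal midbrain, 0% in the ventral forebrain, 0% in the ventral hindbrain and 0% in the alar plate. At an unadjusted p under 0.05 there were 4 replication and 19 mitosis members in the ventral midbrain, 0 and 0 in the dorsal midbrain, 0 and 0 in the ventral forebrain, 2 and 13 in the ventral hindbrain and 15 and 22 in the alar plate. How many of all features passed that unadjusted limit was not counted, here or in the comparisons below. The percentages are of features called, so they are no reference for these counts. The median log2 changes were -0.21 and -0.49 in the ventral midbrain, -0.05 and -0.04 in the dorsal midbrain, 0.36 and 0.44 in the ventral forebrain, -0.35 and -0.67 in the ventral hindbrain and -0.81 and -1.11 in the alar plate.

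**Figure D2:**
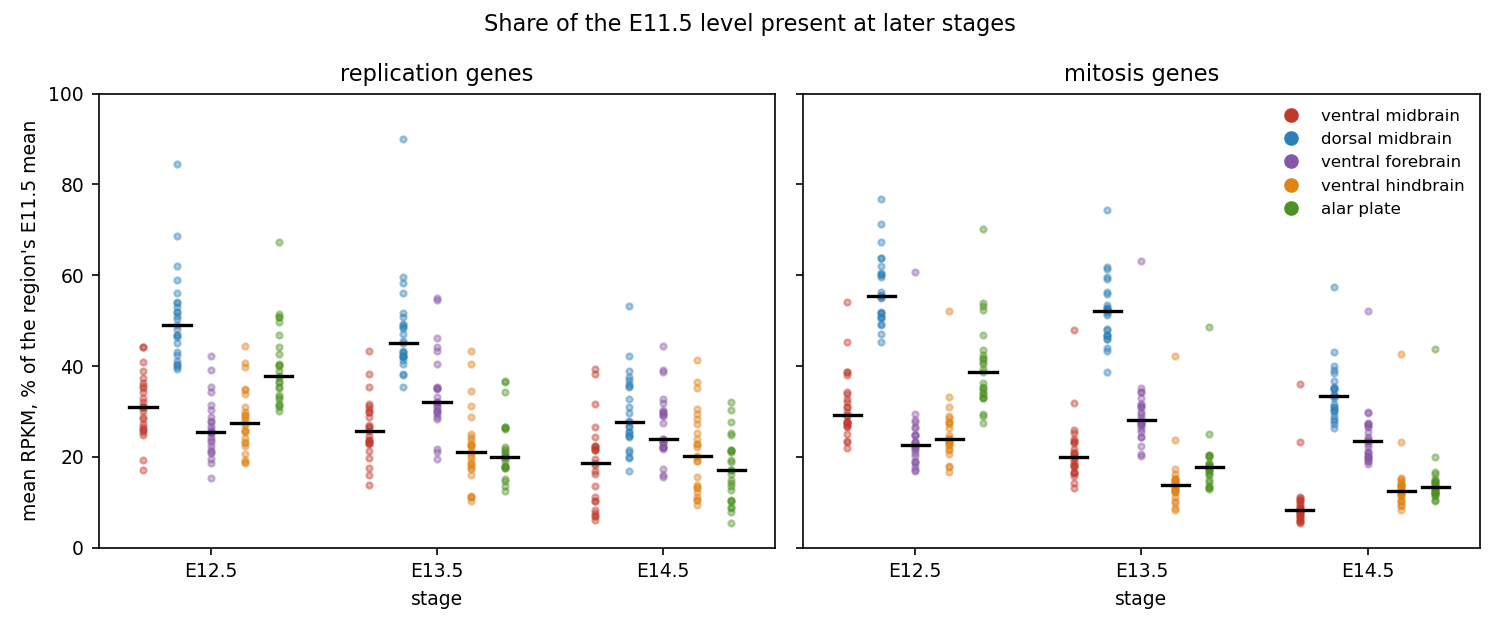
Median share of the E11.5 mean left at E12.5, E13.5 and E14.5 over the 25 replication members and the 25 mitosis members in each of the 5 regions, in percent. At E12.5, E13.5 and E14.5 the mitosis median was 29.2%, 20.1% and 8.4% in the ventral midbrain and 55.5%, 52.2% and 33.5% in the dorsal midbrain.

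A later fall of the mitosis genes was seen in the ventral midbrain. At E14.5 against E12.5, 7 replication and 23 mitosis members were called lower there, with medians of -0.69 and -1.52, against 2.42% of all features. The 7 were Mcm2 (-1.70 ± 0.12, adjusted p = 1.4e-05), Mcm3, Uhrf1, E2f1, Rrm2, Cdc45 and Mcm5, with log2 changes from -1.70 to -1.16. Mki67 (-1.94), Cdc20 (-1.93, adjusted p = 3.19e-05), Top2a (-1.91), Aurkb (-1.70) and Plk1 (-1.64) were among the 23, and Kif20a (-0.64) and Lmnb1 (-0.58) were not. Ccne1 (0.04), Ccne2 (0.21) and Prim1 (0.30) had changes of the other sign that did not pass. Within that interval, E14.5 against E13.5 in the ventral midbrain gave 4 replication members (Mcm2, Mcm3, E2f1 and Uhrf1, from -1.26 to -1.03) and 11 mitosis members, led by Cdc20 (-1.48, adjusted p = 0.000132) and Aurkb (-1.46), against 1.56% of all features. With a pseudocount of 0.1 these counts were 8 and 19.

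In the dorsal midbrain 3 replication members (Mcm2, -1.03, adjusted p = 0.0214, Mcm3, -1.21, 0.0459, and Mcm5, -1.03, 0.0417) and 0 mitosis members were called lower at E14.5 against E12.5 by limma (0.442% of features), with 18 mitosis members at an unadjusted p under 0.05, and voom gave 1 and 0 and no filter on low values 0 and 0. Without E12.5 replicate 3 the counts were 15 and 16, without E14.5 replicate 4 they were 11 and 13, and without any other library of these groups the replication count was 0. In the ventral hindbrain Cdc45 (-1.04, adjusted p = 0.0176) and Cdc20 (-1.32, 0.0165) were the members called (0.578% of features), and the counts were 3 and 5 without E14.5 replicate 2 and 0 and 0 without E12.5 replicate 1 or E14.5 replicate 3, with the Cdc45 call lost without E12.5 replicate 3 and the Cdc20 call lost without E14.5 replicate 4. They were 2 and 4 without E12.5 replicate 1 and E14.5 replicate 2 together, the libraries of atypical region markers, and 0 and 0 with no filter on low values. The ventral forebrain had 0 and 0 by limma and by voom (0.392% of features), 0 and 0 at an unadjusted p under 0.05, and medians of 0.08 and 0.22. The alar plate also had 0 and 0 by limma and by voom (0.00726% of features called), but 21 and 25 members at an unadjusted p under 0.05 and medians of -1.01 and -1.40. The share of all features at that unadjusted limit was not counted. In 1 fit over all 60 libraries, 13 and 23 alar plate members were called. The share of all features called in that fit was not taken, so these counts have no reference.

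**Figure D3:**
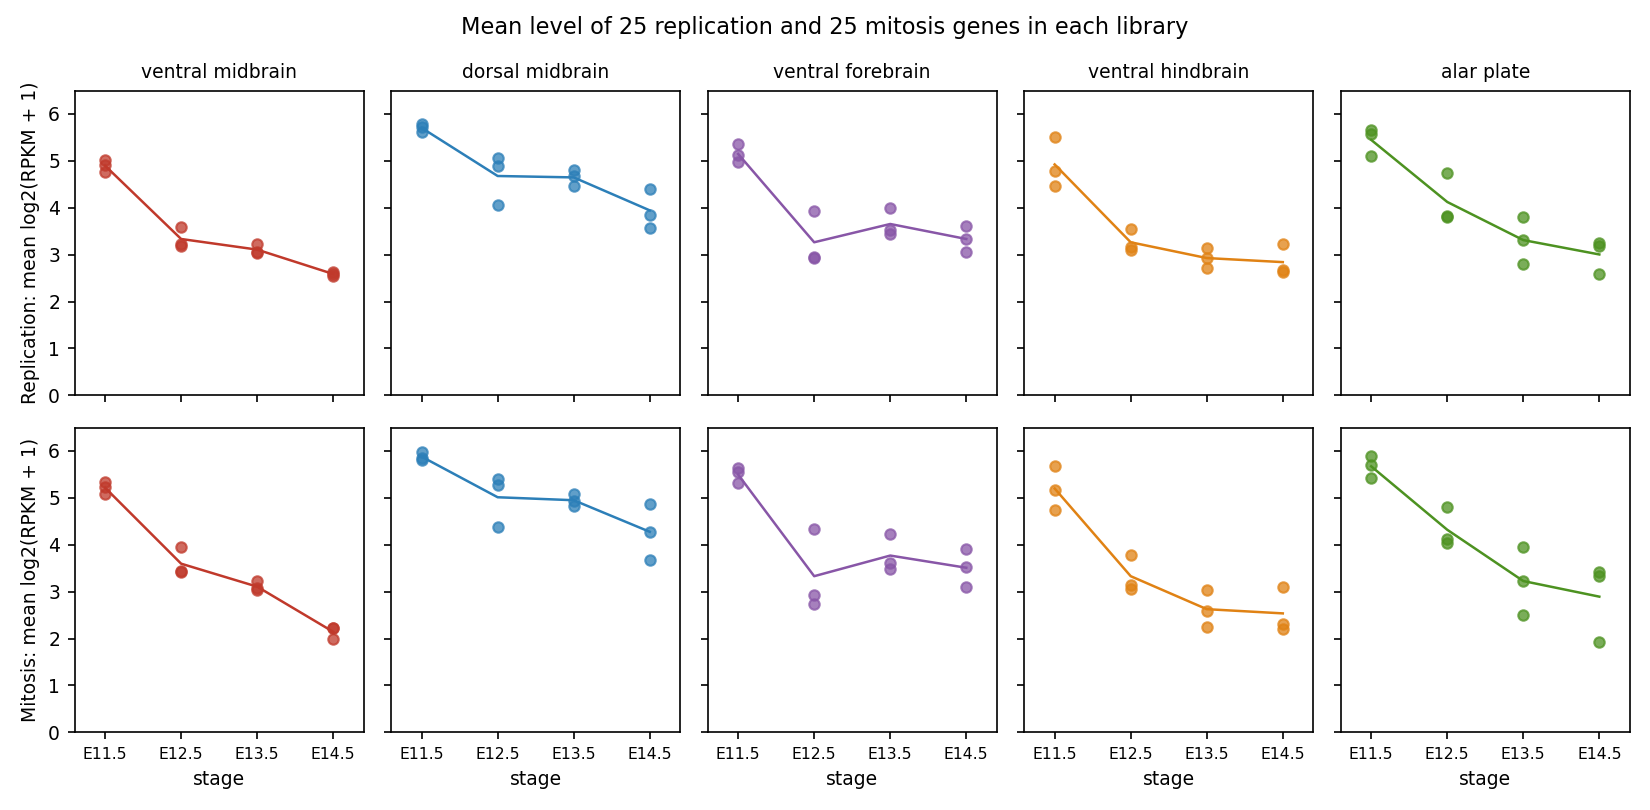
Mean log2(RPKM + 1) over the 25 replication members and over the 25 mitosis members in each library, by region and stage, 1 point per library. The E14.5 mitosis level lay between 1.99 and 2.22 in the ventral midbrain and between 3.67 and 4.88 in the dorsal midbrain, and the ventral forebrain library at 4.34 at E12.5 stands above the others of its group at 2.73 and 2.92.

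The balance between the lists shifted in the ventral midbrain. The mean log2(RPKM + 1) of the mitosis members minus that of the replication members lay between 0.31 and 0.32 in the ventral midbrain libraries of E11.5, 0.20 and 0.36 at E12.5, -0.02 and 0.04 at E13.5 and -0.60 and -0.33 at E14.5. In the dorsal midbrain the difference lay between 0.14 and 0.20 at E11.5, 0.31 and 0.36 at E12.5, 0.26 and 0.35 at E13.5 and 0.10 and 0.47 at E14.5. The E13.5 and E14.5 ventral midbrain libraries were below all dorsal midbrain libraries of their stage. The ventral hindbrain difference also turned negative, between -0.46 and -0.10 at E13.5 and -0.46 and -0.13 at E14.5, and the ventral forebrain difference lay between 0.04 and 0.31 at those 2 stages. The alar plate spread from -0.65 to 0.17 at E14.5. These values are descriptions of the list and carry no test.

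The ventral midbrain was then set against the dorsal midbrain at each stage, in 1 fit per stage over the 15 libraries of the 5 regions. All 50 members had lower means in the ventral midbrain at every stage. At E11.5 only Ccne1 was called (-1.16 ± 0.20, adjusted p = 0.0283), against 0.304% of all features. No mitosis member was called at E11.5 by limma or by voom, with 23 at an unadjusted p under 0.05, and the medians were -0.80 and -0.66. The Ccne1 call was lost with voom and without any single library of the 2 groups except ventral midbrain replicate 4, without which 2 members were called. Without that library and the other E11.5 libraries of atypical region markers, 7 replication members and 1 mitosis member were called. The E11.5 dorsal midbrain libraries have another name prefix. At E12.5, 23 replication members were called lower, with a median of -1.35, and 22 mitosis members, with a median of -1.45, against 3.6%. The replication members with the smallest adjusted p were Mcm5 (-1.63 ± 0.29, 0.00222), Cdt1 (-1.75 ± 0.33), Mcm7 (-1.17 ± 0.22) and, with equal p, Ccne1 (-1.50) and Mcm4 (-1.26 ± 0.25), and among the mitosis members it was Aurkb (-1.92 ± 0.47, 0.0113). The largest change was that of Rrm2 (-2.00 ± 0.58). The members not called at E12.5 were Pola1, Ccne2, Lmnb1, Aurka and Cdk1 (-1.22, adjusted p = 0.0719). These counts rested on single libraries: without dorsal midbrain replicate 1 they were 9 and 0, without dorsal midbrain replicate 2 they were 11 and 0, and without ventral midbrain replicate 2 or replicate 3 they were 13 and 1.

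At E13.5 the separation was wider and steadier. All 25 mitosis members were called lower in the ventral midbrain than in the dorsal midbrain, with a median of -1.94, and 23 replication members, with a median of -1.50, against 4.07% of all features. Lmnb1 had the smallest adjusted p (-1.06 ± 0.10, 2.96e-06), followed by Chaf1b (-1.75 ± 0.19, 8.53e-06) and Ccne1 (-1.76 ± 0.20, 9.81e-06), and the largest changes were those of Top2a (-2.35 ± 0.37) and Uhrf1 (-2.34 ± 0.37). Pola1 (-0.93) and Ccne2 (-0.88) passed on adjusted p but not on size. At E14.5, 25 mitosis members were called with a median of -2.18, and 18 replication members with a median of -1.33, against 4.27%. Top2a changed by -2.78 ± 0.52 (adjusted p = 0.000965), Aurkb by -2.57 ± 0.42 (0.000361), Bub1 by -2.54 ± 0.40 (0.000333) and Birc5 by -2.07 ± 0.30 (0.000175). Among replication members E2f1 changed most (-2.25 ± 0.43, adjusted p = 0.00111) and Mcm7 had the smallest adjusted p (-1.49 ± 0.21, 0.000172), with Mcm2 at -2.02 ± 0.31. The 7 replication members not called at E14.5 were Mcm4 (-0.99), Mcm6 (-0.93), Pola1 (-0.91), Lig1 (-0.60), Ccne1 (-0.56), Prim1 (-0.42) and Ccne2 (-0.36). For Lig1, Ccne1 and Ccne2 the libraries of the 2 regions overlapped. All 48 members called at E13.5 kept their call under each of 12 alternatives. Under each of 13 alternatives 37 of 43 kept it at E14.5 and 9 of 45 at E12.5.

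**Figure D4:**
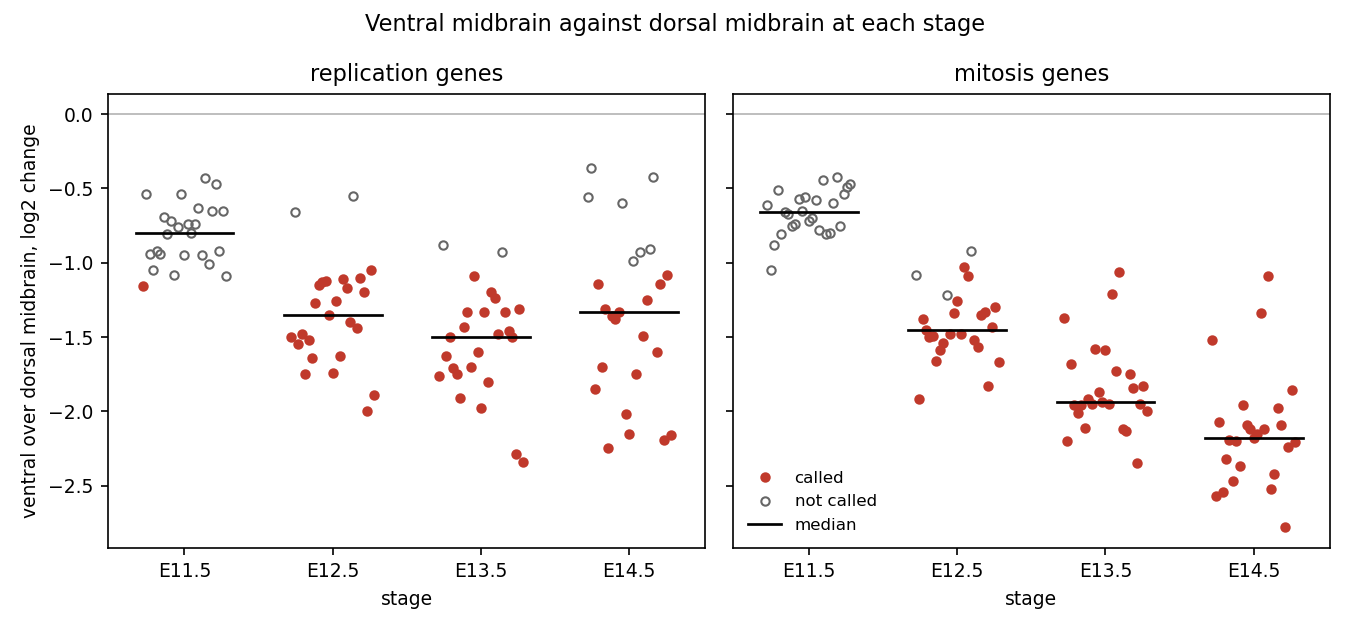
Log2 difference of each member, ventral midbrain minus dorsal midbrain, at each of the 4 stages (limma on log2(RPKM + 1), 3 libraries per group), 1 point per gene, replication and mitosis members apart. From E11.5 to E14.5 the mitosis median was -0.66, -1.45, -1.94 and -2.18, and the replication median -0.80, -1.35, -1.50 and -1.33.

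Across all 5 regions the dorsal midbrain ranked highest by mean for 47 of the 50 members at E11.5, 50 at E12.5, 50 at E13.5 and 49 at E14.5. The lowest region was the ventral midbrain for 33 members at E11.5, the ventral hindbrain for 35 at E12.5 and for 46 at E13.5, and the ventral midbrain again for 46 at E14.5. The median over the mitosis members of the group means was 3.01 RPKM in the ventral midbrain at E14.5, 4.39 in the ventral hindbrain, 6.76 in the alar plate, 11 in the ventral forebrain and 19.4 in the dorsal midbrain. Tests across the regions (moderated F, adjusted p under 0.05 and group means at least 1 log2 unit apart) called 0 replication and 0 mitosis members at E11.5 by limma and by voom (0.116% of features). At an unadjusted p under 0.05 there were 21 and 22, and the share of all features at that limit was not counted. They called 24 and 24 at E12.5 (14.6%), all but Ccne2 and Lmnb1, then 25 and 25 at E13.5 (16.8%), and 18 and 25 at E14.5 (15.7%). At E11.5 the dorsal midbrain, and at E14.5 both midbrain regions, have another name prefix than the other regions. At E11.5 the counts were 13 and 5 without ventral hindbrain replicate 2, and 7 and 0 without all E11.5 libraries named above for their region markers. At E12.5 they were 9 and 0 without dorsal midbrain replicate 1 or replicate 2, and the mitosis count was 12 without ventral hindbrain replicate 3 and 15 without replicate 2. At E14.5 the replication count was 11 without dorsal midbrain replicate 4.

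Whether the loss itself differed between regions was tested as an interaction. From E11.5 to E14.5 the mitosis members fell further in the ventral midbrain than in the dorsal midbrain: 22 of 25 were called, with a median difference of -1.51, against 2.49% of all features. Bub1 differed by -2.03 ± 0.31 (adjusted p = 0.00174), Ccnb1 by -1.80 ± 0.31 (0.00346), Prc1 by -1.67 ± 0.30 (0.0039), Tpx2 by -1.70 ± 0.32 (0.00548) and Top2a by -2.04 ± 0.46 (0.0142). Of the replication members 3 were called, Mcm2 (-1.48 ± 0.22, adjusted p = 0.00182), E2f1 (-1.56 ± 0.32, 0.00828) and Rrm2 (-1.27 ± 0.37, 0.0405), and the median was -0.56. The E11.5 dorsal midbrain has another name prefix than the E11.5 ventral midbrain, and this comparison was added after its values were seen. The mitosis count was 14 without dorsal midbrain E11.5 replicate 4 and the replication count 9 without dorsal midbrain E14.5 replicate 2, and 7 of the 25 members called kept their call under all 19 alternatives. From E12.5 to E14.5, where both regions share a name prefix at each stage, 0 and 0 members were called by limma and by voom (0.159% of features; 1 and 2 at an unadjusted p under 0.05). The medians there were -0.09 and -0.73, and all 25 mitosis members had negative differences, such as Kif23 (-1.03, adjusted p = 0.332), while Prim1 had a positive one (1.02, adjusted p = 0.26). For the ventral hindbrain against the alar plate from E12.5 to E14.5, 0 and 0 were called by limma and by voom (0% of features called higher; 5 and 0 at an unadjusted p under 0.05), with medians of 0.73 and 0.63. For the ventral forebrain against the alar plate, 0 and 0 were called by limma and by voom (0.3%; 15 and 16 at an unadjusted p under 0.05), with medians of 1.10 and 1.65. For these interactions too, the share of all features at an unadjusted p under 0.05 was not counted.

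Markers of other cells moved with stage and region. The summed RPKM of 6 erythroid markers was 155 to 246 in the ventral midbrain at E14.5, against 2060 to 6000 at E11.5, and 152 to 525 in the dorsal midbrain at E14.5, against 4810 to 8160 at E11.5. All 6 were called lower at E14.5 in the ventral midbrain (7.41% of all features), dorsal midbrain (8.07%) and ventral forebrain (6.74%), and 5 in the ventral hindbrain (6.63%) and alar plate (9.3%). Of 14 neural progenitor markers, 7 were called lower in the ventral midbrain, 6 in the dorsal midbrain, 5 in the ventral forebrain, 7 in the ventral hindbrain and 6 in the alar plate, against the same shares of all features. Of 20 neuron markers, 8 were called higher in the ventral midbrain (10.4% of all features), 14 in the dorsal midbrain (7.81%), 14 in the ventral forebrain (9.63%), 9 in the ventral hindbrain (9.98%) and 13 in the alar plate (10.9%). The summed neuron markers reached 5130 to 5630 RPKM in the ventral midbrain at E14.5, against 2960 to 3380 at E11.5, and the summed progenitor markers 1430 to 1700 RPKM, against 1950 to 2370. At E14.5 the progenitor sum was higher in the ventral midbrain, at 1430 to 1700 RPKM, than in the dorsal midbrain, at 812 to 1280 RPKM, and so was the neuron sum, at 5130 to 5630 RPKM against 3290 to 4050 RPKM. A sum is ruled by its most abundant genes. The mean log2(RPKM + 1) of the 14 progenitor markers overlapped between these regions, at 4.86 to 5.07 and 4.64 to 5.2. That of the 20 neuron markers did not, at 7.55 to 7.62 and 6.53 to 6.91. At E12.5, E13.5 and E14.5 no erythroid marker was called between ventral and dorsal midbrain, and 4, 6 and 6 of the 20 neuron markers were called higher in the ventral midbrain, where 4.85%, 6.39% and 7.27% of all features were. At E11.5 it was 0 of 20, against 0.297%. Of 7 mesenchyme markers, 5, 1 and 2 were called lower in the ventral midbrain at E12.5, E13.5 and E14.5, against 3.6%, 4.07% and 4.27% of all features. The mesenchyme sum in the ventral midbrain was 5.99 to 7.14 RPKM at E12.5, 6.64 to 345 RPKM at E13.5 and 7.46 to 10.8 RPKM at E14.5. In the dorsal midbrain it was 67.5 to 128, 66.6 to 87.8 and 7.04 to 165 RPKM. In the ventral forebrain at E11.5 it spread from 4.46 to 1260 RPKM, and the erythroid sum from 2060 to 20900 RPKM. No list was at 0 as a whole, and 1 mesenchyme marker was at 0 in the ventral midbrain at E12.5. Their part in the changes of the division genes was not tested.

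Other genes of the same pathways moved alike. Of 40 other replication genes (origin recognition, replication protein A, polymerases delta and epsilon, and others), 31 were called lower at E14.5 against E11.5 in the ventral midbrain (7.41% of all features), 33 in the dorsal midbrain (8.07%), 26 in the ventral forebrain (6.74%), 27 in the ventral hindbrain (6.63%) and 35 in the alar plate (9.3%). Of 48 other mitosis genes the counts were 47, 47, 47, 47 and 48, against the same shares of all features. None was called higher. Those with the smallest adjusted p in the ventral midbrain were Chaf1a, a partner of Chaf1b (-2.43, adjusted p = 2.51e-08), and Cdca8, a partner of Aurkb (-3.46, 2.59e-08). At E14.5 against E12.5 the ventral midbrain counts were 8 of 40 and 32 of 48, against 2.42% of all features. At E14.5 the ventral midbrain was lower than the dorsal midbrain for 19 of 40 and 46 of 48, against 4.27%.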

How the data were processed

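The authors deposited 1 RPKM table of 24378 features by 60 libraries, made with Bowtie against mm10, per the submitters' processing notes. The read counter, annotation release and strand handling were not given in any source used here. Libraries were Illumina TruSeq from RNeasy total RNA, per the labels' protocols. RPKM times transcript length gave whole reads in 100.0% of values (within 0.01 read), so depth was recovered from the table. Groups came from the tissue and stage labels.

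Differences were tested with limma 3.58.1 (R 4.3.3) with an intensity trend on log2(RPKM + 1), over features whose mean reached 1 RPKM in some group, with Benjamini-Hochberg adjustment over all of them. A call needed an adjusted p under 0.05 and a log2 change of at least 1 in size. Stage comparisons used the 12 libraries of a region, region comparisons the 15 of a stage, and interactions the 12 of 2 regions at 2 stages. The procedure was tested on simulated data. The alternatives were a pseudocount of 0.1, no filter, median-ratio scaling, voom on recovered reads, 1 fit over all libraries, a replicate block, leaving out each library, E12.5 as the start, and leaving out libraries whose region markers went against their labels. A count of 3 reads, taken as the floor, corresponds to 0.127 to 3.06 reads per 1000000, counting error only.

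The members and lists were chosen with earlier results of these data known, and no list has a test of its own. Genes named in each comparison are the called members with the 4 smallest adjusted p and the largest and smallest change per list; 13 genes are given in every library. Promoters are from RefSeq (GRCm38.p6). 2 ventral midbrain E14.5 libraries, replicates 3 and 4, were the closest pair but differed beyond sampling noise and were kept apart.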

Additional observations from a re-analysis of the deposited data

Results flagged for a closer look

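The change from E11.5 to E14.5 differed between the ventral midbrain and the dorsal midbrain by a test of the difference itself, for 22 mitosis members and 3 replication members. Bub1 changed by -3.40 in the ventral midbrain and -1.36 in the dorsal midbrain, Top2a by -3.75 in the ventral midbrain and -1.71 in the dorsal midbrain, and Mcm2 by -3.09 in the ventral midbrain and -1.61 in the dorsal midbrain. The E11.5 libraries of the 2 regions have different name prefixes, so this difference and the prefix cannot be told apart. From E12.5 to E14.5, where the regions share prefixes, 0 and 0 members were called, with medians of -0.73 for mitosis and -0.09 for replication.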

How the results depend on the processing

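Of 570 counts of called members under alternatives, 519 stayed equal to or within 1.5 times the main count. The share of all features called was not taken under the alternatives, so the counts do not show whether members moved more than other features. Signs were followed per called member for the stage, ventral against dorsal midbrain and interaction comparisons. None reversed there under the alternatives other than E12.5 as the start. With E12.5 as the start, E14.5 gave 7 replication members in the ventral midbrain, 3 replication and 0 mitosis in the dorsal midbrain, 0 and 0 in the ventral forebrain, 1 and 1 in the ventral hindbrain, and 0 and 0 in the alar plate. For the ventral against the dorsal midbrain at E11.5, replication gave 0 with no filter, 0 with voom, 4 in 1 fit over all libraries and 0 with a replicate block. At E12.5 no filter gave 15 and 3, ending the calls of Pcna, Rrm2, Mki67, Ccnb1 and Plk1. Across the 5 regions, 1 fit over all libraries gave 6 replication members at E11.5, and no filter gave 13 and 4 at E12.5. For the change from E11.5 to E14.5, ventral minus dorsal midbrain, replication gave 6 with a pseudocount of 0.1, 5 with voom and 1 in 1 fit over all libraries, and mitosis gave 8 with no filter and 10 in 1 fit over all libraries. Leaving out 1 library at a time, the ventral against the dorsal midbrain ranged over 0 to 2 for replication at E11.5 and 9 to 23 and 0 to 25 for replication and mitosis at E12.5. The 5 regions ranged over 0 to 13 and 0 to 5 at E11.5, 9 to 24 and 0 to 25 at E12.5, and 11 to 20 for replication at E14.5. The change from E11.5 to E14.5 ranged over 2 to 9 and 14 to 22. Without the libraries of atypical region markers, a choice made after the data were seen, the ventral against the dorsal midbrain at E11.5 gave 7 and 1, and the 5 regions at E11.5 gave 7 replication members. No filter adds features to the adjustment, and leaving out a library leaves fewer samples; the cause of the other moves was not tested.

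Replicate numbers are shared between groups. From E11.5 to E14.5 the mean r between deviations of same-numbered libraries was -0.027, 0.132, 0.163 and 0.089, against 0.013, -0.067, -0.082 and -0.044 for other numbers. Of 15 libraries a stage, 5, 10, 15 and 12 correlated best with their own number, a hint of pairing within E12.5, E13.5 and E14.5 that comes from the data and not the design. The labels give no meaning to the number and the lowest r of a pair was -0.667, -0.164, -0.219 and -0.11, so the numbers were not taken as pairs. At E14.5 against E11.5 the replicate block gave 25 and 25 members in the ventral midbrain and 23 and 23 in the dorsal midbrain. At E12.5 against E11.5, stages that share 1 number, the block gave 0 and 0 in the alar plate and 2 and 0 in the dorsal midbrain. It gave 0 and 0 at E14.5 against E12.5 in the dorsal midbrain and ventral hindbrain. At E14.5 against E13.5 in the ventral midbrain, stages that also share 1 number, it gave 0 and 0. In these stage fits the block joined libraries of different stages by number. Where few numbers are shared it takes up much of the difference between stages, so the lost calls say little. Of the calls at E14.5 against E11.5, 5 were lost under some alternative: Ccne2 in the ventral midbrain, without E11.5 replicate 2, Mcm7 and Kif20a in the dorsal midbrain, and Prim1 and Lig1 in the ventral hindbrain. Of the 3000 member values, 59 rested on fewer than 10 reads, all of them in E14.5 libraries and many in the ventral midbrain. Ventral midbrain libraries of E14.5 had 17, 1 and 10 reads for Hmmr, 11, 2 and 4 for Ttk and 11, 4 and 4 for Aurkb. They had 8, 5 and 6 for Birc5 and 15, 9 and 7 for Cdc20. The E14.5 values of these members and of Cdc6 are therefore imprecise, also where the spread among libraries is small.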
